A study of Mus musculus with 30 samples.

Results

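The genes described here are those of the cytoplasmic ribosomal proteins, the protein part of the ribosomes that translate nuclear-encoded mRNA. They were chosen by name alone: every probe set on the arrays whose annotation gives a single gene symbol of the form Rpl, Rps or Rplp followed by a number, with a or x allowed at the end. The rule found 59 probe sets for 36 genes, of 15965 genes with a single-symbol probe set. Of the 36 genes, 17 belong to the large subunit, 17 to the small subunit and 2, Rplp0 and Rplp2, to the acidic stalk of the large subunit.

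Total RNA from whole mouse lung was hybridised to Affymetrix MG-U74 version 2 arrays, which come as 3 types, named A, B and C, with different probe sets on each. Per the labels, animals breathed 10% oxygen in a hypoxic chamber, to induce pulmonary hypertension, for 10 h, 2 d, 4 d or 6 d, and another group is titled Norm. The labels give no strain, age, sex, genotype or agent, and the only description of Norm names a mild acute rejection, so that the group is called Norm here after its titles. Each group has replicates 1a and 1b on each array type, 30 arrays in all, and no label says that 1a and 1b were separate animals, so the p-values measure the spread between arrays, which may be technical.

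One array needs mention before any value. The array titled as Norm 1a of type A was deposited among the B arrays, but its values had Spearman correlations of -0.00277 to 0.00963 with the B arrays, so it was left out and 29 arrays were used. Every comparison of an A gene with Norm therefore rests on 1 Norm array, which is assumed to vary like the other groups. The arrays at 2 d and 6 d carry accession numbers in a run of their own, apart from Norm, 10 h and 4 d, so a difference between the runs cannot be told apart from time in 2 d and 6 d against Norm. For that reason 4 d was also compared with 10 h, and 6 d with 2 d, within a run.

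A ribosome holds a single copy of most of these proteins, and cells make them in matched amounts, so that their mRNAs are abundant and usually move as a family. Many of the mRNAs start with a run of pyrimidines, the terminal oligopyrimidine tract, through which the kinase mTOR sets how strongly they are translated. Low oxygen is known to lower mTOR activity through Ddit4 and to slow protein synthesis, a control that acts mainly on translation and less on the amount of mRNA, which is what the arrays measure.

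The start of the gene is shown because that tract is the shared regulatory feature of the family. Before the count, a rule left out the starts on a chromosome named after the sequences. With that rule, RefSeq (GRCm38.p6) gave 38 start sites for 30 of the 36 genes. A gene without a start here is therefore not necessarily absent from RefSeq. In each line below, the window runs from 15 bases before the annotated start to 15 bases from it, 5′ to 3′ on the gene's own strand, and capitals mark the pyrimidine run that opens the transcript where it is 5 bases or longer. The first 6 genes have such a run. By the probe set that represents each gene, Rpl41 had the largest changes of the family at 10 h and 2 d. By the same probe sets, Rps28 and Rps26 had the smallest p against Norm at 2 d and at 6 d. Rpl41, Rps28 and Rps26 have no such run at their annotated start.

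Rps10 (small subunit, chr17:27635230-27635259, minus strand): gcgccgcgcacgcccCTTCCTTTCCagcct

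Rps18 (small subunit, chr17:33955651-33955680, minus strand): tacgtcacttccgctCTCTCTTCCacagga

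Rpl38 (large subunit, chr11:114668565-114668594, plus strand): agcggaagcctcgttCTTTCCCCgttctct

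Rps27 (small subunit, chr3:90213634-90213663, minus strand): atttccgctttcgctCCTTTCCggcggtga

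Rpl7a (large subunit, chr2:26910792-26910821, plus strand): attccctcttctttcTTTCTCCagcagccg

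Rplp2 (stalk, chr7:141447636-141447665, plus strand): tgcgtcagcgtcttcCTTTCgccgccggac

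Rpl41 (large subunit, chr10:128549154-128549183, minus strand): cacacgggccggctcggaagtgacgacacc

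Rps28 (small subunit, chr17:33824548-33824577, minus strand): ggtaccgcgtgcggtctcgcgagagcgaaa

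Rps26 (small subunit, chr10:128626492-128626521, minus strand): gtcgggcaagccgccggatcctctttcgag

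A run of 5 or more pyrimidines from the first base was found in 10 of the 30 genes (33.3%), against 5.28% of the 27025 genes in the RefSeq table. The rule that left out chr18 was applied to the ribosomal protein genes and was not applied to the 27025 genes. The letters CTTCCG, the core that ETS factors such as GABPA bind, occurred on either strand of the 300-base window around the start in 20 of the 30 (66.7%, against 18.8% of all genes). The letters GCCATC, part of the YY1 motif, occurred in 9 (30.0%, against 15.9%), and TATAAA in 4 (13.3%, against 15.7%). These are matches of letters in the annotated windows, and a start annotated a few bases off would hide a run. Among genes tested on the arrays, the 7 with a run had median log2 changes of -0.034 at 10 h, 0.20 at 2 d, 0.0034 at 4 d and 0.090 at 6 d against Norm, and the 16 without one -0.25, 0.089, -0.15 and -0.10. No test was made between these small groups.

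Of the 59 probe sets, 38 exceeded the floor on at least 2 arrays and could be tested, and they cover 28 of the 36 genes, 21 represented on A and 7 on C. The floor was set for each array type at the 40th percentile of its values (intensity 236 on A, 297 on B and 201 on C). The 8 genes never tested were Rpl27, Rpl32, Rpl35a, Rpl37, Rpl39, Rps15, Rps15a and Rps6, the ribosomal protein that S6 kinase phosphorylates; their probe sets reached at most 410 on any array. These mRNAs are abundant in every tissue, so dim values here describe the probe sets and give no level for the genes. Rplp1, Rps27a, Rpl5, Rpl11, Rpl10 and Rpl36a had no probe set with a single symbol. A further 51 probe sets name a ribosomal protein among several symbols, mostly pseudogenes, and are counted apart.

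No ribosomal protein gene passed the adjusted threshold at any time. With limma and Benjamini-Hochberg adjustment over all 25801 tested probe sets, 0 of the 28 genes were called at an adjusted p under 0.05 at 10 h, 2 d, 4 d or 6 d against Norm, or for 4 d against 10 h and 6 d against 2 d. Over all 13039 genes tested, the same rule called 0.0% at 10 h, 1.58% at 2 d, 0.00767% at 4 d, 0.0% at 6 d, 0.0383% for 4 d against 10 h and 0.046% for 6 d against 2 d. By the probe set that represents each gene, the smallest adjusted p among the 28 was 0.821 at 10 h, 0.188 at 2 d, 0.841 at 4 d and 0.355 at 6 d. At an unadjusted p under 0.05 the counts were 0, 3, 0 and 2 of 28 against Norm, 2 for 4 d against 10 h and 3 for 6 d against 2 d. The corresponding background over all genes was 5.59%, 18.4%, 6.49% and 9.13% against Norm, 9.12% for 4 d against 10 h and 13.7% for 6 d against 2 d.

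The precision of the arrays sets what such a count can say. The 95% interval of the change lay wholly within a 2-fold change in either direction for 18 of the 28 genes at 10 h, 16 at 2 d, 22 at 4 d and 20 at 6 d. Among all genes tested this held for 67.9%, 55.2%, 65.3% and 63.7%. For most members, then, a 2-fold difference from Norm lay outside the interval, and for 6 to 12 of them, depending on the time, it did not.

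**Figure D1:**
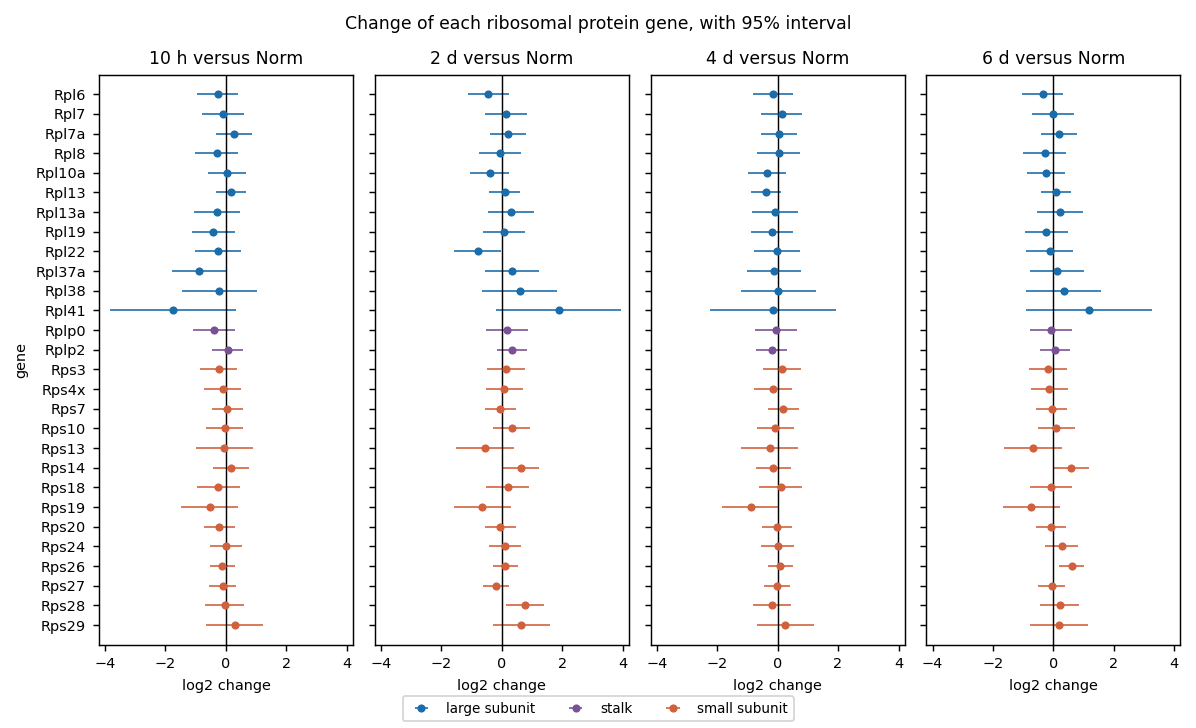
Log2 change against Norm of the 28 tested ribosomal protein genes at 10 h, 2 d, 4 d and 6 d (points, limma estimate; bars, 95% interval), coloured by subunit. Most points lie near 0; Rpl41 lies farthest out, at -1.74 at 10 h and 1.88 at 2 d, with the widest bars.

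As a family the genes read slightly lower than Norm at 10 h and slightly higher at 2 d, by amounts close to the spread between replicate arrays. The median log2 change was -0.11 at 10 h, with 7 genes higher and 21 lower or, for Rps24, unchanged. At 2 d the median was 0.12, with 19 higher and 9 lower. It was -0.072 at 4 d (10 higher, 18 lower) and -0.040 at 6 d (13 higher, 15 lower). Over all genes tested the medians were 0.0, 0.0044, -0.0033 and 0.0, with 47.4%, 51.3%, 47.7% and 50.4% higher. The directions at 10 h and 2 d depend on the scaling: after quantile normalization the medians became 0.017 and -0.045, with 14 of 28 and 13 of 28 genes higher. All 4 comparisons with Norm use the same Norm arrays and so are not independent of each other.

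Within a run of arrays, the median was 0.13 for 4 d against 10 h (17 higher, 11 lower) and -0.14 for 6 d against 2 d (6 higher, 22 lower). Quantile normalization turned the first of these to -0.044 and left the second at -0.037. Whole lung is a mixture, and fewer cells of a type and less RNA per cell cannot be told apart in it.

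By subunit, the 12 tested large-subunit genes had medians of -0.26, 0.11, -0.099 and 0.025 at the 4 times, and the 14 small-subunit genes -0.081, 0.11, -0.014 and -0.061. For 4 d against 10 h the medians were 0.23 (9 of 12 higher) and -0.016 (7 of 14 higher), and no test was made between the subunits. The size of the typical change, the median without regard to sign, was 0.22, 0.26, 0.13 and 0.19 for the 28 genes, and 0.18, 0.30, 0.21 and 0.22 for all genes.

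Array by array, the family varied between replicates as well as between groups. The score of an array is the median, over its member genes, of the log2 intensity minus that gene's mean over the arrays. On A it was 0.033 on the Norm array, -0.30 and 0.049 at 10 h, 0.22 and 0.073 at 2 d, 0.12 and -0.022 at 4 d, and -0.0075 and -0.099 at 6 d. On C it was -0.065 and 0.0052 in Norm, -0.19 and 0.085 at 10 h, 0.22 and 0.10 at 2 d, -0.19 and -0.12 at 4 d, and 0.15 and 0.13 at 6 d. The pooled SD between replicates was 0.122. Both replicates at 2 d were above the Norm arrays on A and on C, and those at 10 h lay on both sides of Norm.

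**Figure D2:**
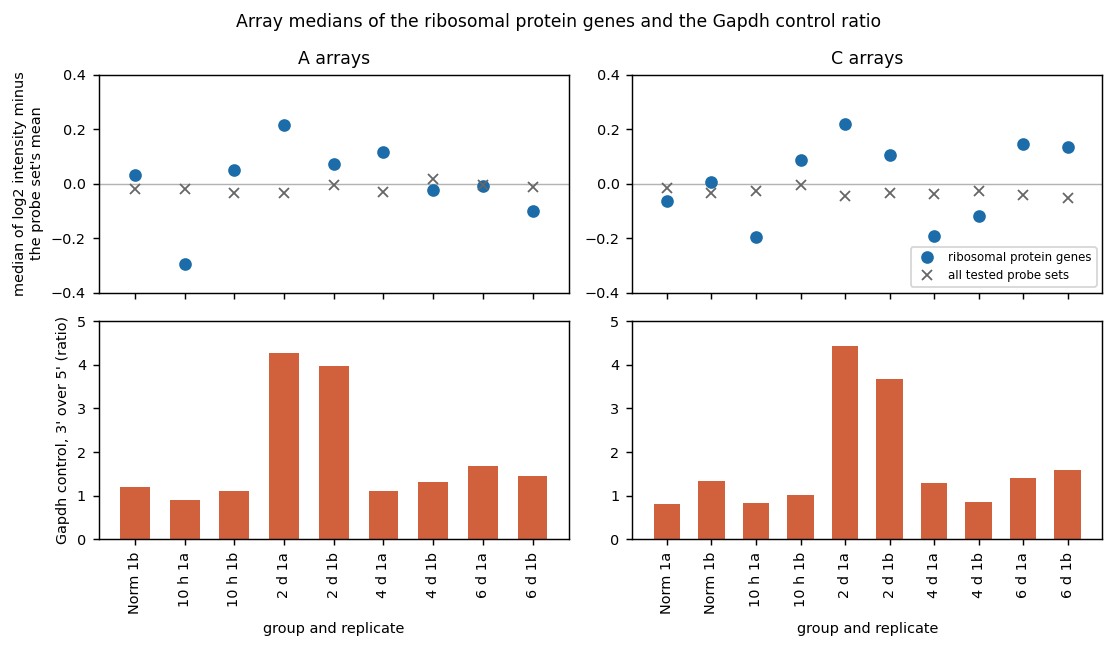
Top: median deviation of the ribosomal protein genes (circles) and of all tested probe sets (crosses) on each A and C array, in log2 units. Bottom: 3′ over 5′ ratio of the Gapdh control probe sets on the same arrays; the ratio is 3.68 to 4.43 on the 2 d arrays shown and at most 1.68 on the others.

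A single array carries much of the 10 h result. On replicate 1a of 10 h, 12 of the 21 A genes had their lowest value of the 9 arrays, and 4 of 21 were above their own mean. Without that replicate the 10 h median was -0.0053, with 12 genes higher and 16 lower or unchanged. Without replicate 1b it was -0.23, with 4 higher and 24 lower or unchanged. The unchanged gene was Rps24 in both. At the other end, 11 of the 21 A genes had their highest value on a 2 d array. No such counts were made over all tested A probe sets, so these do not set the family apart from the array. The median deviation of all tested A probe sets was -0.020 on replicate 1a of 10 h, and -0.036 and -0.0049 at 2 d.

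The control probe sets moved with some of these arrays and not with others. The ratio of the 3′ to the 5′ Gapdh probe set, a measure of how complete the labelled RNA was, lay between 3.64 and 4.60 on the 2 d arrays of all 3 types, and elsewhere between 0.786 and 1.68. The same ratio for beta-actin lay between 3.64 and 4.98 at 2 d, and elsewhere spread more widely, from 0.0272 to 1.66. On A it was 0.0862 on replicate 1a of 10 h and 0.644 on the Norm array. On C it was 0.104 and 0.926 on the 2 Norm arrays. The intensity of the beta-actin 3′ control on A was 28462 and 32015 at 2 d, and 860 on replicate 1a of 10 h, against 11258 on the Norm array. It was also 29090.0 on replicate 1a of 6 d, where the family's score was -0.0075. On C the lowest value of this control was 1707, on replicate 1b of 10 h, where the score was 0.085. The part of RNA quality in the family's values was not tested. Markers of other tissues differed too: of 10 skeletal muscle genes tested, 2 were called lower at 2 d, and of 8 heart genes 4. Over all genes tested, 1.58% were called at 2 d in either direction. All these muscle and heart genes are on A, so their comparisons with Norm rest on 1 Norm array. The lists were summed over arrays of the same replicate letter, although across array types those of the same letter did not always correlate better than those of the other letter (difference in r -0.0771 to 0.094). The skeletal muscle markers summed to 10777 in Norm 1b and 1416 to 1817 at 10 h, 3319 and 3557 at 2 d, 5347 and 9473 at 4 d, and 3476 and 3679 at 6 d. The heart markers summed to 24441 in Norm 1b, 19378 and 21340 at 10 h, 12972 and 14026 at 2 d, 19165 and 21234 at 4 d, and 15135 and 16993 at 6 d. Lymphocyte markers had 0 of 9 called and summed to 25916 in Norm 1b and 16892 to 24468 in hypoxia. Most of this sum was Cd74, at 19570.0 in Norm. At 6 d 6 of the 9 were lower and the others higher or unchanged. The smallest p at that time were for Cd79a at -1.09 ± 0.29 SE, Ighm at -1.07 ± 0.31 and Cd79b at -0.89 ± 0.27 (adjusted p of limma 0.319, 0.355 and 0.366). The markers of lung epithelium, a part of the labelled lung, were all tested (11 of 11, none called). They summed to 105539 in Norm 1b, 74983 and 116226 at 10 h, and 164461 and 176168 at 2 d. The sums were 121228 and 119486 at 4 d, and 160405 and 137480.0 at 6 d. This sum was lowest on replicate 1a of 10 h, as was the family's score on A, and highest on the 2 d arrays, and its part in the family's values was not tested. Sftpb, a surfactant gene of the alveolar epithelium, read 17150.0 in Norm. At 2 d Sftpc, also a surfactant gene, gave 2.46 ± 0.66 (adjusted p of limma 0.0931), Sftpb -0.84 ± 0.25 (0.121) and Scgb1a1, of club cells, 1.68 ± 0.64 (0.204). The 8 endothelial markers summed to 45913 in Norm 1b and 35898 to 47751 in hypoxia, and none was called.

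**Figure D3:**
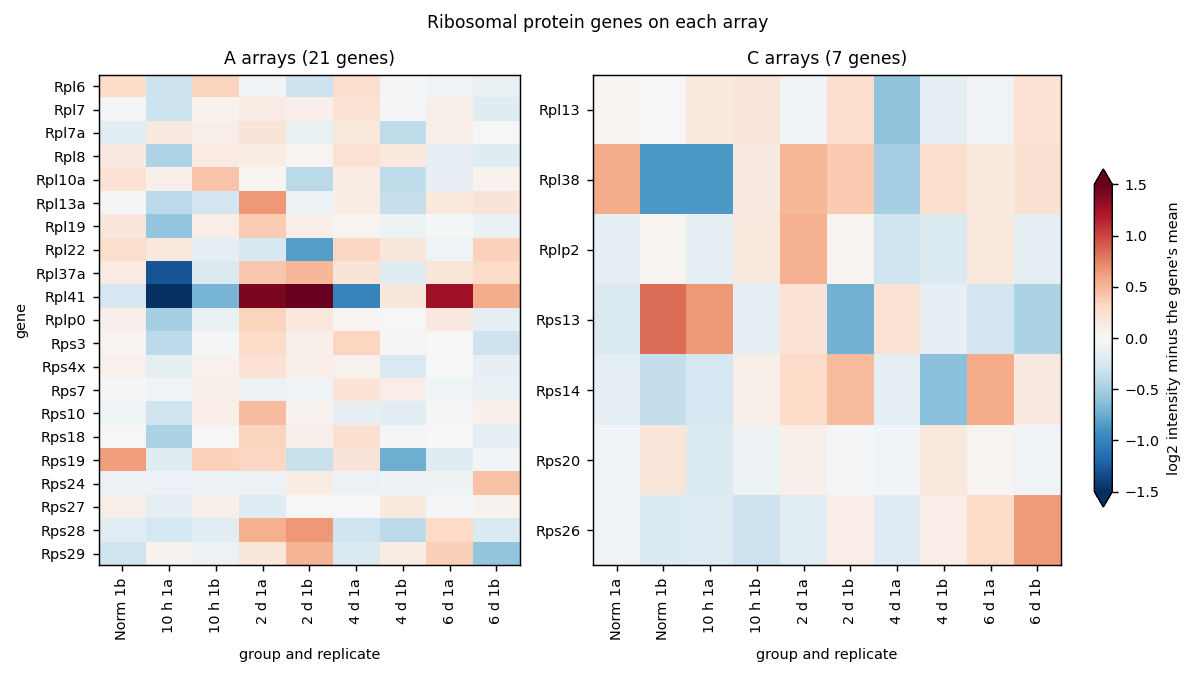
Log2 intensity of each tested ribosomal protein gene on each array minus the gene's mean over the arrays of its type (colour scale cut at 1.5), A arrays left and C arrays right. Rpl41 and Rpl37a are lowest on replicate 1a of 10 h, and Rpl41 and Rps28 are high on both 2 d arrays.

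Among large-subunit genes, Rpl41, which encodes the smallest ribosomal protein, had the widest range. Its intensity was 6136 on the Norm array, 745 and 4513 at 10 h, 19466 and 26095 at 2 d, 3666 and 8260 at 4 d, and 17694 and 10757 at 6 d. Both 2 d arrays lay above the other 7, and the lowest value was on replicate 1a of 10 h. The log2 changes were -1.74 ± 0.91 SE at 10 h, 1.88 ± 0.91 at 2 d, -0.16 at 4 d and 1.17 at 6 d, and the adjusted p of limma was 0.893 at 10 h and 0.316 at 2 d. Without replicate 1a of 10 h the 10 h change was -0.44 and without 1b -3.04. The 4 A arrays with the highest Rpl41 were the 4 with the highest beta-actin 3′ control, and replicate 1a of 10 h was lowest in both. The 6 red cell markers tested summed to 18226 in Norm 1b, 10955 and 18330.0 at 10 h, 39113 and 50462 at 2 d, 19714 and 23152 at 4 d, and 38972 and 21989 at 6 d. The red cell sum was thus highest at 2 d and lowest on replicate 1a of 10 h, like Rpl41. At 4 d it was above Norm on both replicates, where Rpl41 lay on both sides of Norm. Most of the sum was 1 gene, Hba-a1, at 13310 in Norm and a mean of 35710 at 2 d. None of the 6 passed the adjusted threshold at 2 d. The part of either in the Rpl41 values was not tested. Its probe set has the suffix of a sequence family, whose probes are shared with near-identical sequences, so the reading may include copies of the gene.

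Rpl37a, a zinc-binding protein of the large subunit, also read below the Norm array at 10 h, without passing the test. It read 8232 on the Norm array, 3081 and 6487 at 10 h, 10016 and 10688 at 2 d, 8656 and 6642 at 4 d, and 8566 and 9191 at 6 d. Both 10 h arrays were below, and both 2 d arrays above, all the others. The change was -0.88 ± 0.39 SE at 10 h (adjusted p of limma 0.821), which became -0.34 without replicate 1a and -1.42 without 1b. For 4 d against 10 h it was 0.76 ± 0.32 (adjusted p of limma 0.591).

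Rpl22, which outside the ribosome takes part in T cell development, went the other way at 2 d. Its intensity was 924 on the Norm array, 856 and 699 at 10 h, 647 and 434 at 2 d, 955 and 865 at 4 d, and 735 and 975 at 6 d. The 2 d arrays had the 2 lowest values of the 9. The change at 2 d was -0.80 ± 0.34 SE (adjusted p of limma 0.245), and for 6 d against 2 d it was 0.68 ± 0.27 (adjusted p of limma 0.345). A second A probe set of Rpl22 gave -0.04 at 2 d and a suffixed one on C gave 1.08 ± 0.71, so its probe sets gave no common direction.

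Of the other large-subunit genes, Rpl13 read 1617 and 1596 in Norm, 1763 and 1807 at 10 h and 1043 and 1445 at 4 d; its change for 4 d against 10 h was -0.54 ± 0.22 SE (adjusted p of limma 0.569). Rpl13a, known also as part of a complex that silences inflammatory mRNAs, had changes of -0.30, 0.32, -0.080 and 0.21, each within 1 SE of 0. Rpl38, which is needed for the translation of Hox mRNAs, ranged from 75 to 537 with the 2 Norm arrays at 172 and 537, so no change could be read. Other values included -0.41 for Rpl19 at 10 h, -0.45 at 2 d and -0.35 at 6 d for Rpl6, -0.40 at 2 d and -0.35 at 4 d for Rpl10a, -0.31 for Rpl8 at 10 h and 0.27 for Rpl7a at 10 h, none at an unadjusted p under 0.05.

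The stalk recruits elongation factors to the ribosome. Rplp0, its anchor and a common reference gene in RT-PCR, read 17753 on the Norm array, 11856 and 15631 at 10 h, 21149 and 18775 at 2 d, 17084 and 16863 at 4 d, and 18520.0 and 15158 at 6 d. Its changes were -0.38, 0.17, -0.065 and -0.083, with an SE of 0.30. A suffixed probe set on C gave -0.75 ± 0.37 at 10 h (adjusted p of limma 0.873) and 0.12 at 2 d. The other suffixed probe set of Rplp0 on C did not have the sign of the representative at 2 d. Rplp2 read 15718 and 17956 in Norm, 15749 and 19287 at 10 h, 25181 and 17882 at 2 d, 14152 and 15082 at 4 d, and 19465 and 15731 at 6 d, and its changes were 0.053, 0.34, -0.20 and 0.059, with an SE of 0.22.

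In the small subunit, Rps28, whose protein sits at the mRNA exit channel, had the smallest p at 2 d among the probe sets that represent a gene. It read 11095 on the Norm array, 10385 and 11120 at 10 h, 18055 and 19578 at 2 d, 10112 and 9441 at 4 d, and 15337 and 10669.5 at 6 d. Both 2 d arrays lay above the other 7, and both 4 d arrays below them. The change at 2 d was 0.76 ± 0.28 SE, or 1.69-fold (adjusted p of limma 0.188), and 0.48 after quantile normalization (adjusted p of limma 0.389). For 6 d against 2 d it was -0.56 ± 0.23 (adjusted p of limma 0.348). A second, suffixed probe set gave 0.85 ± 0.56 at 2 d and, unlike the first, -0.89 ± 0.56 at 10 h, with 5420.1 on replicate 1a and 16126 on replicate 1b.

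**Figure D4:**
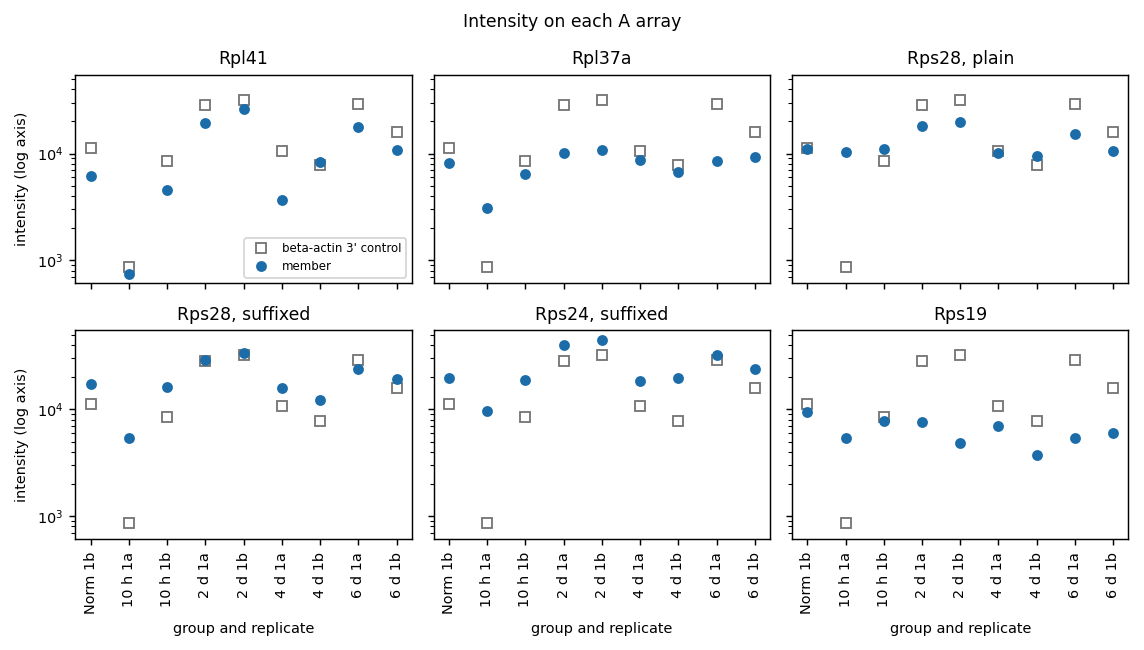
Intensity (log axis) of Rpl41, Rpl37a, both tested probe sets of Rps28, the suffixed probe set of Rps24 and Rps19 on each A array (circles), with the beta-actin 3′ control of the same arrays (squares). The control is at 860 on replicate 1a of 10 h and at 28462 and 32015 at 2 d; Rps19 is highest on the Norm array, at 9479.

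Rps26 and Rps14 gave the small p-values at 6 d. Rps26, which contacts mRNA upstream of the start codon, read 4068 and 3680.1 in Norm, 3719 and 3433 at 10 h, 3825 and 4573 at 2 d, 3727 and 4561 at 4 d, and 5191 and 6605 at 6 d. Both 6 d arrays lay above the other 8 C arrays. The change was 0.60 ± 0.18 SE at 6 d (adjusted p of limma 0.355) and 0.49 ± 0.18 for 6 d against 2 d (adjusted p of limma 0.294). Rps14 read 1165 and 1009 in Norm, 1078 and 1367 at 10 h, 1573 and 1791 at 2 d, 1162 and 836 at 4 d, and 1893 and 1416 at 6 d. Its changes were 0.63 ± 0.26 at 2 d and 0.59 ± 0.26 at 6 d, with adjusted p of limma of 0.232 and 0.536. The Rps26 probe set has the suffix of a sequence family and may read near copies, and that of Rps14 the suffix of relaxed design rules.

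Rps19, the gene most often mutated in Diamond-Blackfan anaemia, was lower than Norm at every time without passing the test. It read 9479 on the Norm array, 5428 and 7829 at 10 h, 7623 and 4866 at 2 d, 7050.3 and 3709 at 4 d, and 5405 and 5964 at 6 d. All 8 hypoxia arrays lay below the 1 Norm array, on which all 4 comparisons rest. The changes were -0.54, -0.64, -0.89 ± 0.41 SE (adjusted p of limma 0.841) and -0.74. Rps13 on C, with Norm at 1339 and 2778, had changes of -0.55 at 2 d and -0.68 at 6 d, both smaller than the distance between its Norm replicates.

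Among the remaining small-subunit genes, Rps27 ranged from 1417 to 1787 over the 9 A arrays, and Rps7, which takes part in the control of p53 by Mdm2, from 10729 to 13409. Rps20 on C ranged from 34234 to 44719.9. Rps4x, the X-linked member, had changes of -0.11, 0.089, -0.15 and -0.13 with an SE of 0.27. Rps29 read 333 on the Norm array and 464 and 586 at 2 d, a change of 0.65 ± 0.41. Rps24 is represented by a probe set above the floor on 4 of 9 arrays, with changes of 0.0 to 0.27. Its suffixed probe set read 19885 on the Norm array, 9563 and 18873 at 10 h, 40213 and 44767 at 2 d, 18550.4 and 19764 at 4 d, and 32175 and 23940.0 at 6 d, a change at 2 d of 1.09 ± 0.45 (adjusted p of limma 0.233). That probe set was designed on the same deposited mRNA as the probe set annotated Rpl7, so its gene is uncertain.

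Rps3, which also takes part in DNA repair, had 3 tested probe sets. The plain one on A read 10739 on the Norm array, 8017 and 10253 at 10 h, 12850.4 and 11064 at 2 d, 13097 and 10654 at 4 d, and 10455 and 8463 at 6 d, with changes of -0.24, 0.15, 0.14 and -0.19. The first suffixed one on C read 2057 and 1416 in Norm, 2440.3 and 2522 at 10 h, 3191 and 2776 at 2 d, 1439 and 1458 at 4 d, and 2131 and 2321 at 6 d. Its 2 d arrays lay above the other 8, and its change at 2 d was 0.80 ± 0.20 SE (adjusted p of limma 0.0769), the smallest adjusted p of any single-symbol member probe set at that time. The second suffixed one on C gave 0.55 ± 0.28 at 2 d.

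**Figure D5:**
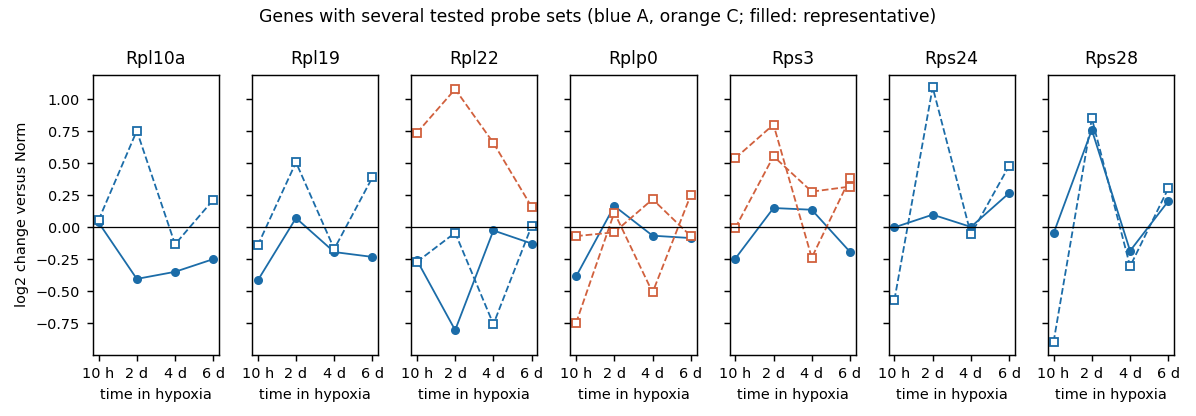
Log2 change against Norm at 10 h, 2 d, 4 d and 6 d for the 7 genes with more than 1 tested probe set (blue, A; orange, C; filled circles, the probe set that represents the gene; open squares, the others). For Rpl10a and Rpl22 the probe sets of a gene lie on both sides of 0 at 2 d.

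More than 1 probe set was tested for 7 genes (Rpl10a, Rpl19, Rpl22, Rplp0, Rps3, Rps24 and Rps28), and their 10 further probe sets had the sign of the representative in 7 cases at 10 h, 7 at 2 d, 6 at 4 d and 3 at 6 d. For Rpl10a the plain probe set gave -0.40 ± 0.28 and the suffixed one 0.75 ± 0.24 at 2 d. Of the 51 probe sets with several symbols, 46 were tested, and their median change was -0.17 at 10 h (13 higher), 0.28 at 2 d (34 higher), -0.11 at 4 d (13 higher) and -0.0042 at 6 d (23 higher). One of the 46 was called, at 2 d: it names Rpl29 among 5 symbols and read 55.4 on the Norm array, under the floor, and 675 to 1097 on the other A arrays. Its change of 2.02 ± 0.32 SE at 2 d (adjusted p of limma 0.0268) rests on that 1 Norm array, and its changes at 10 h, 4 d and 6 d were 1.86, 2.05 and 1.82.

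Genes that work with the ribosomal proteins gave few strong values either. Ribosomal proteins whose names fall outside the rule were 3 of 3 tested: Rpsa, the laminin receptor protein, read 0.62 ± 0.16 SE above Norm at 2 d (adjusted p of limma 0.0929), while Fau read 0.093 and Rps3a1 0.16. The 21 tested translation factors and other genes with terminal oligopyrimidine mRNAs had medians of -0.26, -0.14, -0.10 and -0.064, with 4, 7, 5 and 7 of 21 higher and none called; the elongation factor Eef1a1 stood apart at 0.995 ± 0.34 at 2 d (adjusted p of limma 0.166), and Pabpc1, the poly(A)-binding protein, was at -0.61 ± 0.23. The 51 tested ribosome biogenesis genes had medians of 0.12, 0.068, 0.0 and 0.0, with 35 of 51 higher at 10 h and none called. Among them Gar1, of the pseudouridylation particle, gave 0.66, 0.96 and 1.04 at 10 h, 2 d and 4 d, and Eif6, which keeps the subunits apart, 0.91 ± 0.22 at 2 d (adjusted p of limma 0.0693). In the other direction, Nop10, also of the pseudouridylation particle, gave -0.85 ± 0.17 at 4 d (adjusted p of limma 0.428) and -0.73 ± 0.14 for 4 d against 10 h (adjusted p of limma 0.183), and Brix1, which takes part in large-subunit assembly, -0.93 ± 0.34 (adjusted p of limma 0.724) and -1.16 ± 0.28 (adjusted p of limma 0.277). The 67 tested mitochondrial ribosomal proteins, a separate family that serves the mitochondrial ribosome, had medians of -0.044, 0.11, 0.027 and 0.035. Of the 67, 24, 45, 39 and 36 were higher than Norm at the 4 times, 23 were higher for 6 d against 2 d, and none was called. Mrpl52 gave 0.71 ± 0.18 at 2 d (adjusted p of limma 0.0839). The 8 tested paralogues and variants of ribosomal proteins had medians of 0.037, -0.096, -0.042 and -0.17 and none called.

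In the list of mTOR and stress kinase control, 26 genes were tested and none was called. Ddit4, the hypoxia-induced inhibitor of mTOR, had changes of 1.05, 1.55 ± 0.36 SE, 1.20 and 1.09 at the 4 times, with an adjusted p of limma of 0.0690 at 2 d. Atf4, the transcription factor of the integrated stress response, read 0.79 ± 0.24 at 10 h (adjusted p of limma 0.605) and -0.69 ± 0.20 for 4 d against 10 h. The median over the 26 was 0.019, -0.033, -0.11 and 0.012.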

How the data were processed

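Affymetrix probe set intensity values, on a linear scale, were used as deposited by the authors; the software that made them is not given in the sources used here. Arrays had nearly equal 2% trimmed means (about 800), so that they had been scaled before deposit. Values were set to a floor at the 40th percentile of their array type and taken to log2. Those exceeding the floor on 2 or more arrays were fitted by array type with limma 3.58.1 (R 4.3.3; lmFit and eBayes with trend on 5 group means), two-sided, with Benjamini-Hochberg adjustment over the 3 types together. The fits were checked on data with known changes. A gene was represented by a plain probe set before a suffixed one, then by the highest level relative to its array type. Genes were named by the smallest p, the largest rises and falls, a fixed list, and having 3 or more tested probe sets. The members and lists were chosen with earlier results of these data known. Symbols come from the platform annotation, start windows from RefSeq. Alternatives covered scaling, floor, filter, variance model, replicate block, samples, array types and left-out replicates. Array number limits the precision.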

Additional observations from a re-analysis of the deposited data

How the results depend on the processing

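The count of ribosomal protein genes called was 0 in every comparison under every alternative run. The smallest adjusted p over these settings was 0.0619, at 2 d when A arrays were left out. The median change moved by more than the replicate SD under some. Quantile normalization gave 0.017 at 10 h, -0.045 at 2 d and -0.044 for 4 d against 10 h. Without the filter on dim probe sets the medians were 0.0 for 4 d against 10 h and -0.017 for 6 d against 2 d, over 36 genes. The B and C arrays alone (10 genes) gave 0.21 at 6 d and -0.14 for 4 d against 10 h, and the A arrays alone -0.24 at 10 h. Leaving out 1 replicate at a time gave medians of -0.23 to 0.10 at 10 h, 0.055 to 0.24 at 2 d, -0.090 to 0.13 at 6 d and -0.27 to -0.080 for 6 d against 2 d. Without Norm replicate 1b no A array of Norm is left, and 10 genes remain. The cause of these shifts was not tested, beyond the smaller number of genes. Of 1372 recomputed changes of named genes, 53 differed from the reported change by more than its SE, and 26 changed sign.

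The replicate letters pair nothing known: differences between 1a and 1b correlated at -0.158 to 0.134 between groups. With the replicate block, the medians were -0.14, 0.10, -0.075 and -0.015 at 10 h, 2 d, 4 d and 6 d, 0.13 for 4 d against 10 h and -0.14 for 6 d against 2 d, with 0 genes of the family called. The block moved the count over all genes at 2 d from 206 to 74. Over the other alternatives that count ran from 0, with only Norm and 2 d in the fit, to 339, with adjustment within an array type. The fits without the 2 d arrays were chosen after seeing the data.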
